A study of Mus musculus with 5 samples.

Results

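The Hox genes encode homeodomain transcription factors that give cells their position along the body and limb axes. They lie in 4 chromosomal clusters, Hoxa, Hoxb, Hoxc and Hoxd, and genes at one end of a cluster (anterior, low paralogue number) act further towards the head than those at the other end (posterior, high number). Cultured fibroblasts are known to keep the Hox pattern of the body site from which they came. Many Hox proteins bind DNA together with TALE homeodomain partners, the Pbx, Meis and Prep proteins, and the libraries described here differ by their labels in the TALE proteins Meis1 and Prep1.

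The 38 Hox genes listed for the 4 clusters were looked up by symbol in the authors' tables, and all 38 were found. They stood in 31 of the 61082 loci, 23 of them with 1 symbol and 8 that join several genes, so the joined genes share 1 value and cannot be told apart. Of these genes, 4 (Hoxa3, Hoxb3, Hoxb5 and Hoxc4) each stood in a pair of loci. The tables give no strand, and what parts the loci of a pair was not analysed here.

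RNA-seq expression values came from 5 cultures of mouse embryonic fibroblasts (MEFs, connective-tissue cells grown from embryos) at passage 30, all of C57BL/6 background. By their labels, 3 cultures overexpressed TALE genes (M for Meis1, P for Prep1, MP for both) and the fourth carried the vector alone (EV). All 4 were Prep1-hypomorphic, that is, with an allele that lowers Prep1. The last library came from Prep1 wild-type cells (WT), for which no vector is named. The growth protocol gives E14.5 embryos and names hypomorphic embryos for every sample, WT included, whereas the genotype label of WT reads wild-type. The labels do not give the vector's promoter, the number of embryos, the body part used or whether a line is 1 clone. In any comparison with WT, the effects of genotype, of infection and of the line itself cannot be told apart.

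With 1 library a group there are no replicates: no test was possible, no difference has an error, and what is compared is libraries, not conditions. Read depth is unknown. Levels are in scaled units, which are FPKM (fragments per kilobase of transcript, relative to the library's total) after each library's upper quartile of expressed single-gene loci was set to 10. That quartile was 429 FPKM in M, 11.6 in the library labelled P, 9.63 in that labelled MP, 157 in EV and 12.2 in WT. Differences are log2((level + 1)/(level + 1)), a scale that understates changes at low levels, and 2-fold means at least 1 on it with 1 scaled unit or more in either library. Most fibroblast markers were high: Col1a2 stood between 17.6 and 22.3 and Thy1 between 11.4 and 16.2 over the 5 libraries, whereas Lum stood at 1.92 in WT and at 0.237 or less in the others. Pdgfra, also a fibroblast marker, stood at 6.54 in M, 5.78 in the library labelled P, 7.72 in that labelled MP, 2.56 in EV and 11.8 in WT. Among markers of other cell types, neural ones summed to between 32.8 and 39.6, with Map2 and Nes at 11.0 or more and Sox10 at 0.618 or less over the 5 libraries. Haematopoietic ones summed to between 19.8 and 29.4, most of it from a joined locus that holds Cd68, with Ptprc at 0.362 or less and Emr1 at 0 in 3 libraries. Chondrocyte ones summed to between 8.27 and 15.4, with Sox9 at 5.21 or more. Epithelial markers summed to between 0.393 and 3.33, endothelial ones to between 0.663 and 1.74, and muscle ones to between 0.0629 and 1.02, with Myod1 at 0 in 4 libraries.

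Meis1 stood at 16.8 scaled units in M, 8.86 in the library labelled P, 15.4 in that labelled MP, 8.32 in EV and 12.4 in WT. Pknox1, the gene of Prep1, stood at 3.25 in M, 0.554 in the library labelled P, 0.569 in that labelled MP, 2.16 in EV and 11.0 in WT. Meis1 was therefore highest in the libraries labelled as overexpressing it, M and MP. The ratios were 2.02 and 1.86 to EV, and only 1.36 and 1.25 to WT. Pknox1, in contrast, was lowest in the libraries labelled as overexpressing Prep1. Directions drawn from the libraries labelled P and MP carry that limit.

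The Hoxd cluster was silent or nearly so in every library, and the Hoxa, Hoxb and Hoxc clusters were above background in all 5 libraries over a run of loci that left out Hoxb1 and groups 11 to 13. Olfactory and vomeronasal receptor genes, which act in sensory neurons, served as the background: in each library a locus counted as above background when it exceeded the 95th percentile over 1447 such loci. That percentile was 0.867 scaled units in M, 0.0509 in the library labelled P, 0.0976 in that labelled MP, 0.567 in EV and 0.0693 in WT. By this rule 15 of 31 Hox loci were above background in M, 19 in the library labelled P, 16 in that labelled MP, 18 in EV and 16 in WT. Of all 23805 loci with a symbol, 53.4% were above it in M, 67.8% in the library labelled P, 62.9% in that labelled MP, 60.6% in EV and 68.6% in WT. As many as 15 Hox loci, which hold 22 of the genes, were above it in all 5 libraries, and 12 loci in none. In bulk RNA, fewer cells that express a gene and less RNA per cell cannot be told apart.

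**Figure D1:**
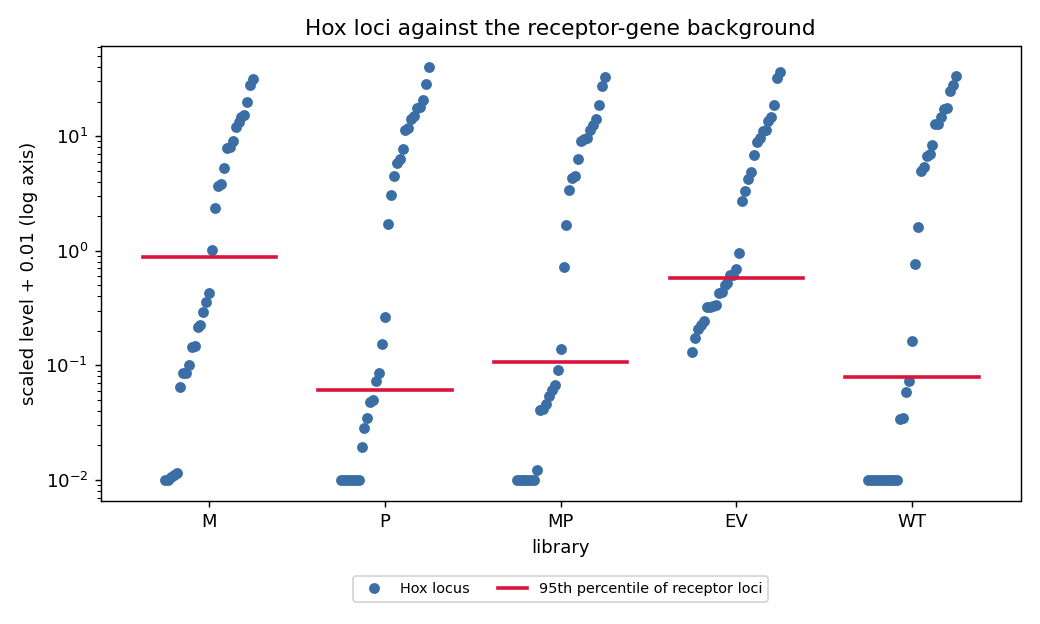
Scaled levels of the 31 Hox loci (points, + 0.01, log axis) in each library, with the 95th percentile over receptor loci as a red line. The 15 loci that are above the line in every library span 1.01 to 31.5 units in M and 0.750 to 33.6 in WT, and EV has no Hox locus at 0.

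Of the 9 Hoxd genes, which pattern the limb, the genitals and the posterior trunk, each has its own locus. Their levels reached at most 0.213 scaled units in M (Hoxd12), 0.0627 in the library labelled P (Hoxd8), 0.0514 in that labelled MP (Hoxd8), 0.426 in EV (Hoxd10) and 0.0246 in WT (Hoxd4). Only Hoxd8 in the library labelled P passed the background, at 0.0627 against 0.0509. Summed over the cluster, the level was 0.709 in M, 0.106 in the library labelled P, 0.0892 in that labelled MP, 2.57 in EV and 0.0490 in WT. The higher sums of EV and M go with the receptor loci, whose median was 0.188 in M and 0.279 in EV and 0 in the other 3 libraries. How much of the low Hoxd values in EV and M is that background was not tested.

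Genes of groups 11 to 13 in the other clusters were also low. Hoxa11 and Hoxa13, which pattern the distal limb, stood below background in all 5 libraries, with Hoxa11 at 0.0551 scaled units in M, 0.00949 in the library labelled P, 0.0315 in that labelled MP, 0.489 in EV and 0 in WT. The neighbouring joined locus of Hoxa9 and Hoxa10 stood at 7.02 or more in all 5 libraries, so the Hoxa loci above background ended before group 11; Hoxa10 cannot be told apart from Hoxa9. Hoxc11, Hoxc12 and Hoxc13, of which Hoxc13 is known for its role in hair and nails, were all listed at 0 in WT and reached at most 0.348, 0.142, 0.0806 and 0.609 in M, the libraries labelled P and MP, and EV. Hoxc12 passed the background in the library labelled P (0.142) and in EV (0.609). In the same cluster a joined locus of Hoxc4, Hoxc5, Hoxc6 and Hoxc10 had the highest level of any Hox locus in all 5 libraries. Hotair, a long noncoding RNA gene between Hoxc11 and Hoxc12, was listed at 0 in the libraries labelled P and MP and in WT, and stood below background in M (0.465) and EV (0.431).

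The outermost Hoxb genes behaved likewise. Hoxb1, an anterior gene of the hindbrain, stood at 0.283 scaled units in M, 0.0755 in the library labelled P, 0.0437 in that labelled MP, 0.686 in EV and 0.152 in WT. Hoxb13, a gene of the tail bud and prostate that lies apart from the rest of its cluster, stood at 0.418 in M, 0.255 in the library labelled P, 0.130 in that labelled MP, 0.600 in EV and 0.0626 in WT. Both were above background in the library labelled P and in EV, Hoxb1 also in WT and Hoxb13 also in that labelled MP, and neither reached 1 unit anywhere.

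**Figure D2:**
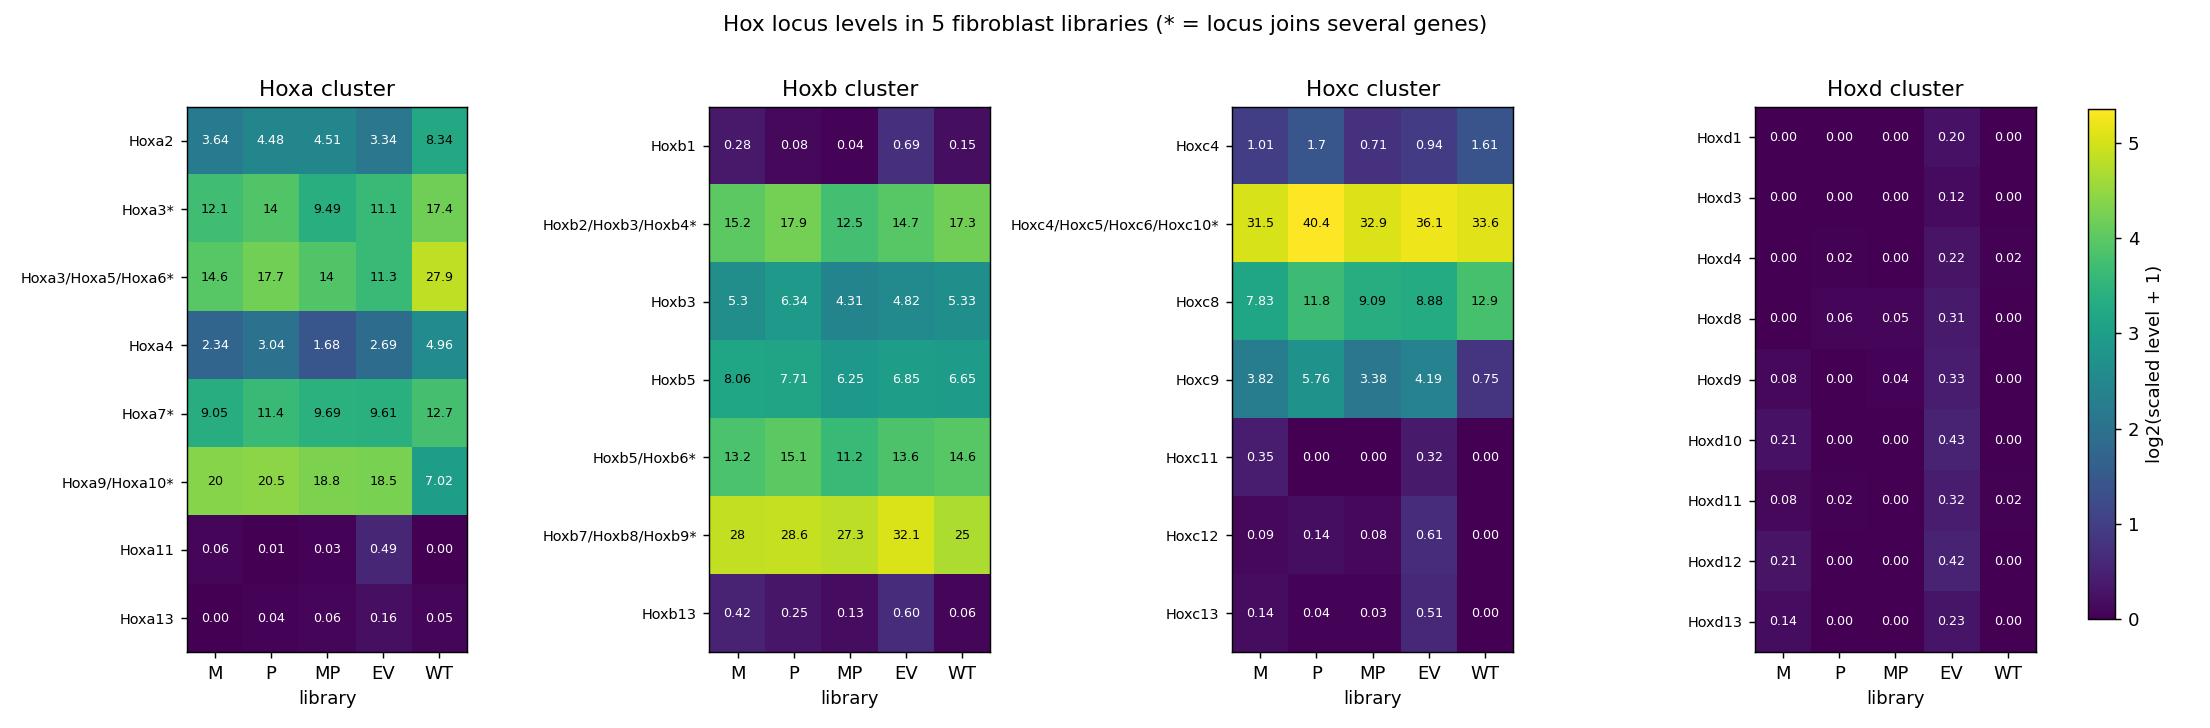
Scaled levels of every Hox locus (rows, by cluster and paralogue number) in the 5 libraries (columns), with the value in each cell and log2(level + 1) as colour. Hoxd is at 0.426 or less throughout, and Hoxa9/Hoxa10 and Hoxc9 are lower in WT than in the 4 hypomorphic libraries.

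In the hypomorphic libraries the highest Hox levels came from 3 joined loci of central and posterior genes. The locus of Hoxc4, Hoxc5, Hoxc6 and Hoxc10 stood at 31.5 scaled units in M, 40.4 in the library labelled P, 32.9 in that labelled MP, 36.1 in EV and 33.6 in WT, at or above percentile 99.8 of all loci with a symbol in each. The locus of Hoxb7, Hoxb8 and Hoxb9 stood at 28.0 in M, 28.6 in the library labelled P, 27.3 in that labelled MP, 32.1 in EV and 25.0 in WT. In the hypomorphic libraries the locus of Hoxa9 and Hoxa10, genes of the lumbar region and limb, came next, at rank 3. WT had a different order, with the locus of Hoxa3, Hoxa5 and Hoxa6 at rank 2 and that of Hoxa9 and Hoxa10 at rank 10. The single-gene loci of Hoxa4 and Hoxc4 were low among the 15, at 4.96 or less over the 5 libraries. In M, the library labelled MP and EV, all joined Hox loci ranked above all single-gene ones. The first single-gene locus was Hoxc8, at rank 8 in the library labelled P and rank 7 in WT. Rank thus went largely with joining, and its part cannot be told apart from that of position in the cluster.

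Of these joined loci, 3 also hold a microRNA gene of the cluster, so their values may include its primary transcript. Mature microRNAs were not measured. The 5p sequences of those 3 genes are shown because 2 of them share a seed; miR-196 is known to act on Hoxb8 mRNA. They are from RefSeq (GRCm38.p6), 5′ to 3′, with the seed (bases 2 to 8) in capitals. Mir196b lies in the locus of Hoxa9 and Hoxa10, Mir196a-1 in that of Hoxb7, Hoxb8 and Hoxb9, and Mir10a in that of Hoxb2, Hoxb3 and Hoxb4.
mmu-miR-196b-5p: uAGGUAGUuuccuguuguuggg
mmu-miR-196a-5p: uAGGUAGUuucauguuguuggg
mmu-miR-10a-5p: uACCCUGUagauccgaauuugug

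The comparison of EV with WT sets a hypomorphic library with the vector against a wild-type library for which no vector is named. Genotype, infection and line differ together in it. At 4 of the 15 Hox loci kept, EV and WT were at least 2-fold apart: the locus of Hoxa9 and Hoxa10 and Hoxc9 were higher in EV, and Hoxa2 and the locus of Hoxa3, Hoxa5 and Hoxa6 were lower. Among all 13568 loci kept, EV was above WT by at least 2-fold at 3.38% and below it at 5.83%. The median over the 15 Hox loci was -0.22, against 0.06 over all loci kept, whose middle 90% spanned -1.09 to 0.82.

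The joined locus of Hoxa9 and Hoxa10 (XLOC_043614) stood at 20.0 scaled units in M, 20.5 in the library labelled P, 18.8 in that labelled MP and 18.5 in EV, against 7.02 in WT. Every hypomorphic library was thus above WT, and the 4 lay close together. The log2 difference to WT was 1.39 for M, 1.42 for the library labelled P, 1.30 for that labelled MP and 1.28 for EV, ratios of 2.84, 2.92, 2.67 and 2.64. By rank among loci with a symbol, the locus was at percentile 98.0 in M, 98.8 in the library labelled P, 97.8 in that labelled MP, 96.8 in EV and 63.3 in WT.

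Hoxc9 (XLOC_015236), a gene of the thoracic region and its motor neurons, stood at 3.82 scaled units in M, 5.76 in the library labelled P, 3.38 in that labelled MP and 4.19 in EV, against 0.750 in WT. The WT value was still above the WT background of 0.0693. Log2 differences to WT were 1.46, 1.95, 1.32 and 1.57 for M, the libraries labelled P and MP, and EV, and the ratio of EV to WT was 5.59. Hoxc9 and the locus of Hoxa9 and Hoxa10 were the only Hox loci at least 2-fold above WT in all 4 hypomorphic libraries, which held for 0.892% of 13794 loci kept. None was at least 2-fold below WT in all 4, as 3.94% of these loci were. Among the other group 9 genes, Hoxd9 stood at 0.326 or less over the 5 libraries. Hoxb9 shares a locus with Hoxb7 and Hoxb8 that was also lowest in WT with this scaling. There EV was 0.35 above WT on the log2 scale and the library labelled MP only 0.12. With the upper quartile taken over loci above 0 in all libraries, that locus was below WT in the library labelled MP.

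Hoxa2, an anterior gene, and a joined locus of anterior and central Hoxa genes went the other way. Hoxa2 (XLOC_043610), which patterns the second branchial arch, stood at 3.64 scaled units in M, 4.48 in the library labelled P, 4.51 in that labelled MP and 3.34 in EV, against 8.34 in WT. The log2 difference to WT was -1.01 for M, -0.77 for the library labelled P, -0.76 for that labelled MP and -1.11 for EV, so M and EV passed the 2-fold mark. Over all Hox loci kept, 2 were at least 2-fold above WT in each of M and the libraries labelled P and MP, against 2.82%, 1.81% and 1.57% of all loci. At least 2-fold below WT were 1 in M (Hoxa2), none in the library labelled P and 1 in that labelled MP (Hoxa4), against 7.04%, 5.91% and 8.15% of all loci. The joined locus of Hoxa3, Hoxa5 and Hoxa6 (XLOC_043611), of which Hoxa5 is known for its part in lung and cervical skeleton, stood at 14.6 in M, 17.7 in the library labelled P, 14.0 in that labelled MP and 11.3 in EV, against 27.9 in WT. All 4 hypomorphic libraries were below WT, by -0.89, -0.63, -0.95 and -1.24 on the log2 scale for M, the libraries labelled P and MP, and EV.

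With libraries scaled to their medians, EV was below WT by -0.80 at Hoxa2 and by -0.91 at the locus of Hoxa3, Hoxa5 and Hoxa6, short of the 2-fold mark, although the median of all loci was then 0.35.

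The remaining Hoxa loci of groups 3 to 7 were lower in the hypomorphic libraries as well. Hoxa4 stood at 2.34 scaled units in M, 3.04 in the library labelled P, 1.68 in that labelled MP and 2.69 in EV, against 4.96 in WT, and was at least 2-fold lower only in the library labelled MP (-1.15). A second locus of Hoxa3, joined with another symbol, stood at 12.1 in M, 14.0 in the library labelled P, 9.49 in that labelled MP and 11.1 in EV, against 17.4 in WT. Hoxa7, whose locus is joined with Mira, stood at 9.05 in M, 11.4 in the library labelled P, 9.69 in that labelled MP and 9.61 in EV, against 12.7 in WT. Thus within Hoxa, with this scaling, the 5 transcribed loci of groups 2 to 7 were below WT in all 4 hypomorphic libraries and the locus of groups 9 and 10 was above it in all 4. Such one-sided patterns were common: all 4 were above WT at 39.8% of 13794 loci and below it at 30.5%, and the 4 comparisons share the single WT library. With libraries scaled to their medians, Hoxa2, Hoxa4 and the locus of Hoxa3, Hoxa5 and Hoxa6 were still below WT in all 4, whereas Hoxa7 and the second Hoxa3 locus were not; the locus of Hoxa9 and Hoxa10 was above it in all 4 with either scaling.

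Hoxb loci showed no such split, and with median scaling all 5 were above WT in all 4 libraries, as 68.0% of all loci were. Over the 5 transcribed Hoxb loci, log2 differences to WT ran from -0.17 to 0.25 in M, 0.04 to 0.21 in the library labelled P, -0.43 to 0.12 in that labelled MP and -0.22 to 0.35 in EV. Hoxb5, for example, stood at 8.06 scaled units in M, 7.71 in the library labelled P, 6.25 in that labelled MP, 6.85 in EV and 6.65 in WT. In Hoxc, Hoxc8 stood at 7.83 in M, 11.8 in the library labelled P, 9.09 in that labelled MP and 8.88 in EV, against 12.9 in WT, with EV 0.49 below WT on the log2 scale. Hoxc8 and Hoxc9, which are neighbours, thus differed from WT in opposite directions, though with median scaling Hoxc8 was above WT in the libraries labelled P and MP. The joined locus of Hoxc4, Hoxc5, Hoxc6 and Hoxc10 differed from WT by -0.09 in M, 0.26 in the library labelled P, -0.03 in that labelled MP and 0.10 in EV.

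**Figure D3:**
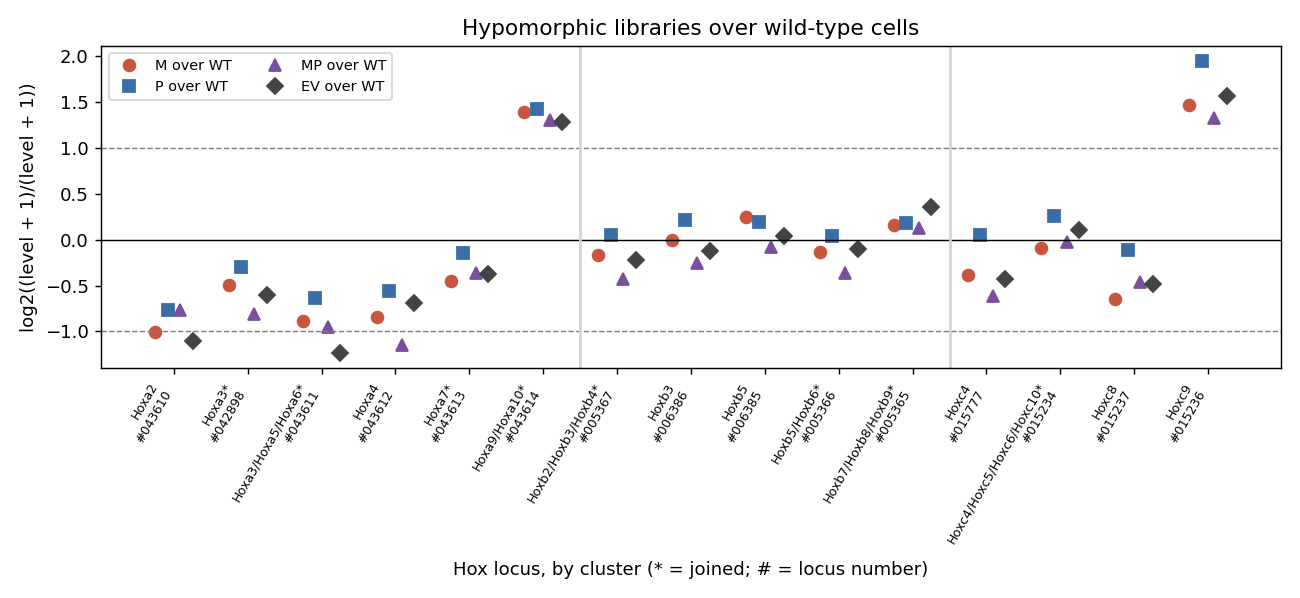
Log2 difference of each hypomorphic library to WT at the 15 Hox loci above background in all 5 libraries, ordered by cluster (grey lines part Hoxa, Hoxb and Hoxc); dashed lines mark 2-fold. Hoxa9/Hoxa10 and Hoxc9 lie between 1.28 and 1.95 in all 4 libraries, Hoxa2 to Hoxa7 loci lie below 0 (with median scaling Hoxa7 and 1 Hoxa3 locus do not in all 4), and Hoxb loci lie between -0.43 and 0.35.

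Several markers of other cell types differed along with this contrast. Sox2, a stem-cell factor, stood at 12.5 scaled units in M, 13.3 in the library labelled P, 11.8 in that labelled MP and 12.7 in EV, against 0.629 in WT. The 4 pluripotency markers summed to 13.9 in M, 15.1 in the library labelled P and 12.9 in that labelled MP. Their sum was 15.8 in EV and 2.28 in WT, and in the hypomorphic libraries most of it was Sox2. Nanog stood at 0.776 in M and 1.04 in the library labelled MP, below its 1.48 in WT. It stood at 1.58 in the library labelled P and 1.80 in EV. Pou5f1 stood at 0.592 or less and Zfp42 at 0.716 or less over the 5 libraries. Acan, a cartilage proteoglycan, stood at 1.02 in M, 9.83 in the library labelled P, 4.83 in that labelled MP and 5.42 in EV, against 0.0254 in WT. Col2a1, the cartilage collagen, lay the other way, at 0.243 in M, 0.344 in the library labelled P, 0.418 in that labelled MP and 0.229 in EV, against 2.22 in WT. Csf1r, a macrophage receptor, stood at 3.63 in M, 3.54 in the library labelled P, 3.71 in that labelled MP and 1.89 in EV, against 1.17 in WT. The part of these markers, and of Pdgfra, Lum and Col3a1 (12.5 in EV and 5.46 in WT) among the fibroblast ones, in the Hox differences was not tested.

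The promoters of Hoxa2 and Hoxa9 are shown because the loci of these genes lay on opposite sides of WT. Promoter windows of RefSeq (GRCm38.p6) were matched by symbol for 22 of the 38 genes, and the 250 bases before each start were searched on both strands for TGATTNAT (bound by HOX with PBX), TGACAG (bound by MEIS and PREP), TGATTGAC (bound by PREP with PBX, which overlaps TGACAG where AG follows) and TGANTCA (bound by AP-1). Each is given on the gene's strand, 5′ to 3′, with matches in capitals. The Hoxa2 window is chr6:52164832-52165081 and the Hoxa9 window chr6:52227371-52227620, both on the minus strand.
Hoxa2: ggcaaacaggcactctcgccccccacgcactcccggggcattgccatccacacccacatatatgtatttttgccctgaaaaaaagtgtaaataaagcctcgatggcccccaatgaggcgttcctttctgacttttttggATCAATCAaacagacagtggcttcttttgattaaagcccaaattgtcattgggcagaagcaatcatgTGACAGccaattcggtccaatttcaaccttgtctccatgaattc
Hoxa9: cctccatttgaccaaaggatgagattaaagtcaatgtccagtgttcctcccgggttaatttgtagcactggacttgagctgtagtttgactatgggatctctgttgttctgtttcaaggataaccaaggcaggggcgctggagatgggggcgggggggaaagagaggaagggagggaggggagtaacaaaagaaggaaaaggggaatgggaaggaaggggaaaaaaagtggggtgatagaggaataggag

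The Hoxa2 window held 1 match to TGATTNAT, on the opposite strand, and 1 to TGACAG, and the Hoxa9 window held none of the 4 motifs. Over the 24 Hox windows, TGATTNAT was in 2 (Hoxa2 and 1 of the Hoxd11 windows), TGACAG in 2 (Hoxa2 and Hoxa3), TGANTCA in 1 (the other Hoxd11 window) and TGATTGAC in none. Among 32851 windows of all genes, 2.82% held TGATTNAT, 15.9% TGACAG, 6.75% TGANTCA and 0.691% TGATTGAC. Hox windows had a median GC content of 58.6% and 12.5 CG pairs, against 52.4% and 6 over all windows. These are matches of letters in short windows and do not measure binding.

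Adding Meis1 or Prep1 to hypomorphic cells is the other contrast of the design. None of the Hox loci was 2-fold apart from EV in M or in the libraries labelled P and MP. In those labelled P and MP, the Pknox1 level gives no sign of added Prep1. Meis1 itself fell short of the 2-fold mark over EV, at a log2 difference of 0.93 in M and 0.82 in the library labelled MP. A count of 0 Hox loci therefore does not show that Hox genes were unaffected. In M none of 15 Hox loci kept reached the 2-fold mark, which 0.3% of all 12985 loci passed upwards and 0.685% downwards. Log2 differences over EV ran from -0.19 (the locus of Hoxb7, Hoxb8 and Hoxb9) to 0.35 (that of Hoxa3, Hoxa5 and Hoxa6, with a level of 14.6 in M against 11.3 in EV). Their median was 0.05, with 8 loci higher and 7 lower in M, and all 15 lay inside the middle 90% of all loci, which spanned -0.44 to 0.36.

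The library labelled P had slightly higher Hox levels than EV. At 14 of 15 Hox loci kept the level was higher in the library labelled P, where 44.0% of all 13025 loci kept were higher, and the median was 0.27 against -0.04 over all loci. The 15 loci are clustered neighbours, and some genes stand in a pair of them, so they are not independent observations. None was 2-fold apart, as against 0.63% of all loci higher and 2.04% lower. The largest differences were those of the joined locus of Hoxa3, Hoxa5 and Hoxa6 (17.7 scaled units in the library labelled P and 11.3 in EV, log2 0.61) and of Hoxc4 (1.70 and 0.938, log2 0.48), the 2 loci above the 95th percentile of all loci, 0.44. The locus of Hoxb7, Hoxb8 and Hoxb9 was the one below EV (-0.17). Because Pknox1 was lower in this library than in EV, the label does not fix what this comparison varied.

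In the library labelled MP, 9 of 14 Hox loci kept were below EV and 5 above, with a median of -0.13 against -0.05 over all loci, and none was 2-fold apart (0.202% of 12864 loci were higher and 2.37% lower). Hoxa4 was furthest below, at 1.68 scaled units in the library labelled MP and 2.69 in EV (log2 -0.46), and Hoxa2 furthest above, at 4.51 and 3.34 (0.34), which exceeded the 95th percentile of all loci, 0.30. All 5 transcribed Hoxb loci were lower than in EV, by -0.11 to -0.26. These directions depend on the scaling: with libraries scaled to their medians, 13 of the 14 were above EV (all but Hoxa4), as were 87.0% of all loci. Relative to the median of all loci, 0.34 there, 9 of 14 were below with either scaling. M and the libraries labelled P and MP share the single EV library.

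**Figure D4:**
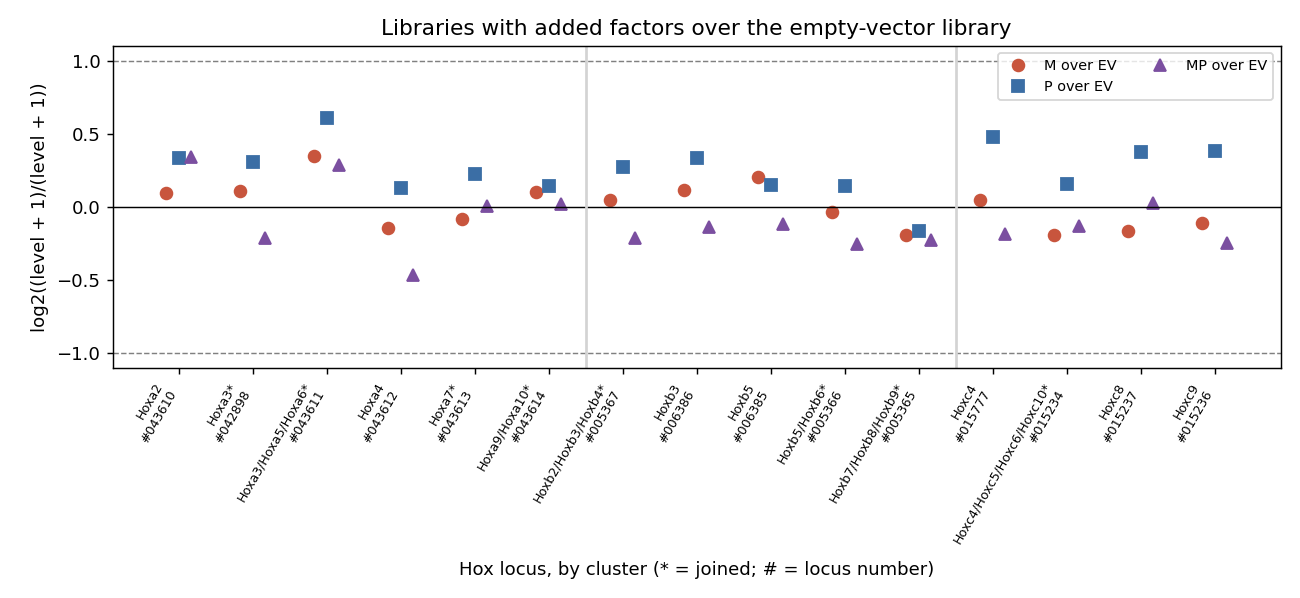
Log2 difference of M and of the libraries labelled P and MP to EV at the 15 Hox loci above background in all 5 libraries; dashed lines mark 2-fold. Every point lies between -0.46 and 0.61, and the points of the library labelled P are above 0 at 14 loci, also with median scaling.

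Set directly against each other across tables, the library labelled MP was lower than that labelled P at 14 of 15 Hox loci, where 47.6% of 12530 loci kept were lower. Here too the Hox loci are not independent of each other. The median was -0.34 against 0.02 over all loci, and none was 2-fold apart (0.239% of all loci were higher and 0.886% lower). Hoxc4 (0.709 scaled units in the library labelled MP and 1.70 in that labelled P, log2 -0.66) and Hoxc9 (3.38 and 5.76, -0.63) were furthest apart and lay below the 5th percentile of all loci, -0.62. With libraries scaled to their medians the count lower was 7 of 15, as all loci moved to a median of 0.37, but relative to the median of all loci 15 of 15 were lower with either scaling. Against M the library labelled MP was lower at 11 of 15 Hox loci, where 56.5% of 12609 loci were lower, with a median of -0.14 and none 2-fold apart (0.206% higher and 1.36% lower among all loci). Hoxb5 differed most, at 6.25 scaled units in the library labelled MP and 8.06 in M (-0.32). With median scaling 2 of 15 were lower than in M, and relative to the median of all loci, then 0.32, 10 of 15 were.

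In the authors' deposited tables, 15 Hox loci of the comparison of M with EV were marked not tested and 11 failed, and 2 of the 5 tested were called higher in M (the joined locus of Hoxc4, Hoxc5, Hoxc6 and Hoxc10, and Hoxc4), as were 19.2% of 5848 tested loci with a symbol (0.0513% were called lower). The other 3 comparisons of the authors' deposited results each had 13 tested Hox loci, all of them called lower than in EV, as were 98.7% of loci tested for the library labelled P, 99.2% for that labelled MP and 96.6% for WT (called higher were 0.0094%, 0.0099% and 0.116%). The deposited values are not scaled as above, and the upper quartile of EV was 157 FPKM against 9.63 to 12.2 in these 3 libraries.

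Hox cofactors of the TALE family were measured in the same libraries. Besides Meis1 and Pknox1, given above, Meis3 stood at 2.17 scaled units in M, 4.67 in the library labelled P, 2.79 in that labelled MP and 3.55 in EV, against 12.2 in WT, and Meis2 at 8.17, 13.4, 8.53 and 9.26, against 18.4. Of 9 TALE genes, 2 were at least 2-fold lower in EV than in WT (Pknox1, log2 -1.93, and Meis3, -1.53) and none higher, against 5.83% and 3.38% of all loci. The Hox partners Pbx3 (10.5 scaled units in EV and 12.0 in WT) and Pbx2, whose locus is joined (10.9 and 12.9), were within 2-fold.

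Of 19 loci kept from a list of 20 genes flanking the clusters, none was 2-fold apart between EV and WT, where 3.38% of all loci were higher and 5.83% lower by that much. Their median was 0.38, against 0.06 over all loci. Skap2, next to Hoxa, stood at 24.2 scaled units in M, 20.6 in the library labelled P, 22.7 in that labelled MP, 23.4 in EV and 22.3 in WT. Evx1 and Evx2, homeobox genes at the posterior ends of Hoxa and Hoxd, stood below background in all 5 libraries.

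Retinoic acid is known to activate anterior Hox genes, and the list of genes upstream of Hox held its synthesis, breakdown, binding and receptor genes with Gdf11 and the Cdx factors. Of 11 loci kept, 2 were at least 2-fold lower and 2 higher in EV than in WT, against 5.83% and 3.38% of all loci. Lower were Rarb, a retinoic acid receptor (1.37 scaled units in EV and 4.85 in WT, log2 -1.30), and the joined locus of Aldh1a1, which makes retinoic acid (0.391 and 4.77, -2.05). Higher were Cyp26b1, which breaks it down (4.24 in EV and 0.934 in WT, 1.44), and Crabp1, which binds it in the cytoplasm (17.8 and 7.98, 1.07). Rarb was also at least 2-fold lower, and Cyp26b1 at least 2-fold higher, in M and in the libraries labelled P and MP than in WT. Cdx1, Cdx2 and Cdx4, activators of central Hox genes, stood at 0.363 or less in all 5 libraries.

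The list of limb and positional genes had 22 loci kept, of which EV exceeded WT by at least 2-fold at 5 and fell short of it by as much at 4, against 3.38% and 5.83% of all loci. Tbx5, the forelimb T-box factor, stood at 5.46 scaled units in EV and 0.0368 in WT, Irx1 at 8.58 and 0.701, and Tbx15 at 20.0 and 5.99. Alx4, a factor of the anterior limb and skull, stood at 0.683 in EV and 10.5 in WT, and En1, a factor of ventral limb skin and dermal fibroblasts, at 1.58 and 7.40. Pitx1 and Tbx4, factors of the hindlimb, were at 0.716 or less in all 5 libraries. At Tbx5, Irx1, Irx2 and Tbx15, and in the other direction at Alx4, En1 and Dlx5, all 4 hypomorphic libraries were at least 2-fold from WT on the same side.

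**Figure D5:**
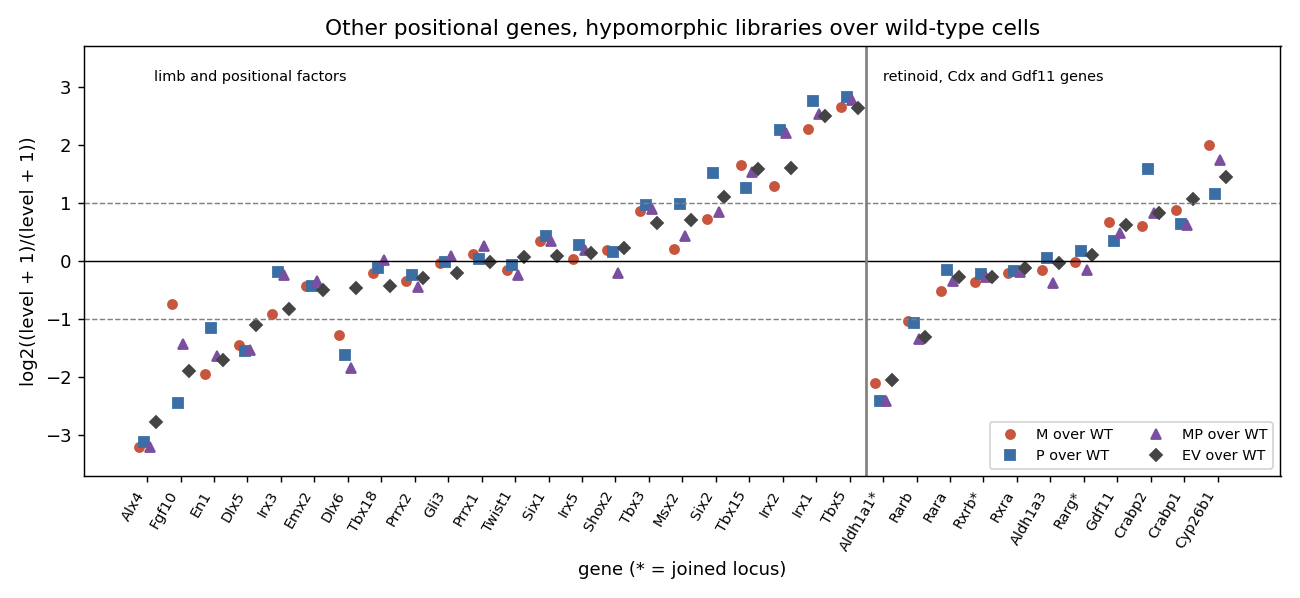
Log2 difference of each hypomorphic library to WT at genes of the positional list (left) and of the list upstream of Hox (right) with 1 scaled unit or more in EV or WT; dashed lines mark 2-fold. Tbx5, Irx1, Irx2, Tbx15 and Cyp26b1 lie above 1 and Alx4, En1, Dlx5, Rarb and Aldh1a1 below -1 in all 4 libraries.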

How the data were processed

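Per the labels' protocols, total RNA of 5 MEF cultures was sequenced on an Illumina platform, 1 library per group. The authors deposited 4 tables of FPKM per locus, each setting EV against 1 other library. TopHat, Cufflinks, Cuffdiff and the mm9 build are named in the submitters' processing notes; versions, annotation, strand setting and normalisation are not given in the sources used here. Columns of p-value and q-value in the deposited tables come from the authors' test of 1 library against 1 and were used only through their calls (q under 0.05). Loci without a symbol were left out.

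Computed here (Python 3.11.15, pandas 2.3.3, numpy 2.4.6): each library was scaled so that its upper quartile over single-gene loci with 1 FPKM or more somewhere was 10, with the EV column of the M table. Loci were kept at 1 scaled unit or more in 1 of the libraries compared, with a pseudocount of 1. FPKM of near-identical or overlapping genes are uncertain. Scaling and the 2-fold rule were run on simulated data made from the EV column, without added noise or a difference in background. That run checked the code and does not show how well the scaling suits these libraries. Named genes were the 38 Hox genes, 9 TALE genes, and members of the lists that were 2-fold apart or above background, with others given for reference. The members and lists were chosen with earlier results of these data known; motifs, and genes singled out for lying on opposite sides of WT, were chosen after their values were seen. Pairs without EV or WT were set across separately normalised tables. Alternatives were the pseudocount, the filter, the scaling, the EV column, the background level and joined loci. Direction counts under other scalings were added after seeing the data.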

Additional observations from a re-analysis of the deposited data

How the results depend on the processing

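Of the 54 alternative counts, 42 stayed within 1.5 times the count given above. Many of these were counts of 0 that stayed 0, for M and the libraries labelled P and MP against EV. Such counts say little of how stable the results are. With FPKM as deposited, 23 Hox loci were 2-fold apart from EV in M and 31 each in the library labelled P, in that labelled MP and in WT; the median of all loci was then 3.60 for EV over WT on the log2 scale, and Hoxa2 (2.43) and the locus of Hoxa3, Hoxa5 and Hoxa6 (2.51) reversed, but relative to that median they stood at -1.34 and -1.25. For EV against WT, 2 loci in place of 4 were 2-fold apart when libraries were scaled to their medians (the median of all loci was then 0.35, against 0.06), when joined loci were left out, and with the library labelled P in place of EV, an alternative chosen after seeing the data. With loci kept only at 5 scaled units or more the count was 3, since Hoxc9 drops out. EV over WT stayed past the 2-fold mark for Hoxc9 and for the locus of Hoxa9 and Hoxa10 under every other alternative that keeps them. So did M and the libraries labelled P and MP in place of EV, set against WT here with the main scaling only. These values ran from 1.32 to 5.29 for Hoxc9 and from 1.13 to 5.10 for the joined locus, the upper ends being the deposited FPKM. With median scaling, Hoxa2 stood at -1.15 and the locus of Hoxa3, Hoxa5 and Hoxa6 at -1.26 relative to the median of all loci. The cause of the lower count with median scaling was not tested. Without joined loci 7 loci were above background in M, 11 in the library labelled P, 8 in that labelled MP, 10 in EV and 8 in WT. With median scaling, the median of all loci was 0.32 to 0.71 in the comparisons of the library labelled MP and in those with WT. With the main scaling it lay between -0.047 and 0.065, so the signs of small differences there depend on the scaling. No paired analysis was possible because each group held 1 library. The unknown depth and the background of EV and M limit what can be said of low Hox levels.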

Other observations

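Polycomb and trithorax genes, whose products are known to keep Hox genes silent or active, were mostly within 2-fold between the libraries. Of 28 Polycomb-list loci kept, 1 was at least 2-fold lower in EV than in WT and none higher, against 5.83% and 3.38% of all loci, with a median log2 difference of -0.06; that locus was Cbx7, a chromodomain subunit, at 1.50 scaled units in EV and 6.65 in WT (-1.61). Cbx7 was likewise at 1.19 in M, 1.75 in the library labelled P and 1.08 in that labelled MP. The main locus of Ezh2, the H3K27 methyltransferase, stood at 15.6 in M, 11.4 in the library labelled P, 15.0 in that labelled MP, 16.0 in EV and 10.5 in WT. With so few loci the shares over all loci allow a count of 0, and none of the 10 trithorax-list loci was 2-fold apart in M, in the library labelled P or in that labelled MP against EV, or in EV against WT. Only 9 of the 14 symbols of that list were found, partly because the list holds older and newer symbols of the same genes.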
